A study of Homo sapiens with 18 samples.

Results

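The genes described here encode the proteins of the cytosolic ribosome and their close paralogs. They were chosen by name: a probe set entered if the array annotation gave it 1 gene symbol and that symbol was RPL or RPS with a number (with a closing A, X, Y or L where there is one), RPLP0 to RPLP2 or RPSA. This gave 121 probe sets for 60 genes, out of 19775 genes with a probe set of their own, and each gene was represented by the probe set with the highest mean log2(signal + 16). Of the 60 genes, 56 passed the filter on low signal: 20 proteins of the small subunit, 29 of the large subunit, the stalk proteins RPLP1 and RPLP2, and 5 paralogs (RPL7L1, RPL10L, RPL22L1, RPL26L1 and RPS27L). The 4 that did not pass were RPL36A and the paralogs RPL3L, RPL39L and RPS4Y1. A further 15 ribosomal protein symbols, among them RPL5, RPL10, RPL13A and RPL23, stand in the annotation only beside other symbols and are not members, and RPLP0, RPSA, RPS27A and RPL26 are not analysed here.

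A ribosome consists of ribosomal RNA and of proteins: those of the small subunit, which binds the mRNA, those of the large subunit, which forms the peptide bond, and the acidic stalk proteins of the large subunit, which recruit translation factors. Ribosomal protein mRNAs are among the most abundant of dividing cells, and most begin with a C followed by a run of pyrimidines, the 5′ terminal oligopyrimidine (TOP) tract, through which growth signals regulate their translation. Several core proteins have a paralog elsewhere in the genome that can take the core protein's place in the ribosome or acts outside it.

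Caco-2 cells, an established human colon carcinoma line that resembles intestinal epithelium, were grown either in riboflavin-free medium (called depleted here and "ribo deficient" in the labels) or in standard DMEM (control, labelled untreated). RNA was taken at 24, 48 and 72 h, which gives depleted cells at 3 times and control cells at 3 times, 3 arrays a group and 18 arrays in all. Every group shared serum at the same concentration, penicillin and streptomycin. The labels mention dialysed serum without saying on which arrays, give no genetic change, and come from 1 cell line. The running number in the sample titles passes through the 6 groups once in every 6 arrays, so each of 3 sets of 6 arrays holds 1 array of every group, and the fit compares arrays within sets. In set 2 both 24 h arrays and the 48 h control array carry a suffix after their running number that the labels do not explain. Nothing in the labels says whether sets were separate cultures, so p-values measure the spread between these samples, which may be technical.

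Intestinal epithelial markers were detected on the arrays. Of 8 epithelial markers 7 passed the filter, as did 4 of 5 fibroblast and 3 of 5 leukocyte markers. Summed signals were 17815 to 28019 in depleted and 18422 to 31025 in control cells for the epithelial markers. The 5 fibroblast markers summed to 347 to 622 in depleted and 440.4 to 715 in control cells. The 5 leukocyte markers summed to 162 to 271 in depleted and 110 to 421 in control cells, and no marker was at 0. Set 2 stood apart from the others in scale: the highest signal of an array was 27380 to 31410 there, and only 7669 to 8575 (set 1) or 6905 to 8358 (set 3) elsewhere. The log2 ratio of 3′ to 5′ ACTB signal, a check of RNA and labelling, ran from 0.93 up to 2.21 in that set, from 0.58 up to 1.05 (set 1) and from 0.17 up to 0.29 (set 3). Within set 2 it was 2.21 (depleted, 24 h), 1.70 (control, 24 h) and 1.60 (control, 48 h) on the 3 arrays with a suffix and 0.93 to 1.06 on the other 3, so the 48 h pair of that set, and its comparison of 72 h with 24 h, set an array of one kind against one of the other. At 24 h the ratio was higher in depleted cells in each set (1.05, 2.21 and 0.29 against 0.91, 1.70 and 0.19 in control cells), and at 72 h it was lower in depleted cells in each (0.66, 0.93 and 0.24 against 0.70, 1.06 and 0.28). Its part in the results was not tested.

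Most core proteins, and few of their paralogs, have a TOP tract at the annotated first base of their transcript. The windows printed here run from 15 bases before the annotated RefSeq start (build GRCh38.p14) through the first 15 transcribed bases, 5′ to 3′ on the gene's strand, and capitals mark a TOP tract: a C at the annotated first base followed without a break by C or T, at least 5 letters long. They are shown for the tested paralogs, for the core partners of RPL22L1 and RPS27L, whose values differ below, and for 3 core genes with long tracts.
RPL22, chr1:6199581-6199610, minus strand: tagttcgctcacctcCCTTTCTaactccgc
RPL22L1, chr3:170870181-170870210, minus strand: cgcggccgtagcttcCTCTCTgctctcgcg
RPS27, chr1:153990747-153990776, plus strand: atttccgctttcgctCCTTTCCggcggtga
RPS27L, chr15:63157463-63157492, minus strand: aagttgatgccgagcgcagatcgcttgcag
RPL10L, chr14:46651767-46651796, minus strand: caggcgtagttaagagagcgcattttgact
RPL26L1, chr5:172958714-172958743, plus strand: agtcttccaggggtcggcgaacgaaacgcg
RPL7L1, chr6:42879601-42879630, plus strand: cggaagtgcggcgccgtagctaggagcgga
RPS6, chr9:19380222-19380251, minus strand: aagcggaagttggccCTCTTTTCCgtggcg
RPS24, chr10:78033848-78033877, plus strand: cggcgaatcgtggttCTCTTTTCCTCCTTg
RPLP1, chr15:69452803-69452832, plus strand: gtataggcgcgagagCCCCTTTCCTCagct
Of the 52 core genes 46 had a window in the RefSeq table, and 33 of those 46 (71.7%) began with such a tract. The share was 2 of 6 paralogs with a window (33.3%, RPL22L1 and RPS4Y1), 4 of 67 mitochondrial ribosomal protein genes (5.97%) and 1104 of all 27305 genes (4.04%). The difference between these shares was not tested. Of the 5 tested paralogs RPL22L1 has such a tract in these letters and RPS27L, RPL10L, RPL26L1 and RPL7L1 do not, and the remaining core genes with a window have none either. An annotated start can lie a few bases from the used one, and 87.0% of the core genes and 21.1% of all genes have such a tract beginning within 5 bases of it on the same strand.

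Core ribosomal protein mRNAs showed no change past the test in depleted cells at any time. At 24 h 0 of 51 core genes were called by limma at an adjusted p under 0.05, against 1.98% of all 12319 genes higher and 0.982% lower. At 48 h again 0 of 51 were called, against 0.568% of all genes higher and 0.244% lower. At 72 h 0 of 51 were called although 6.21% of all genes were higher and 8.65% lower, and the effect averaged over the times called 0 of 51 against 8.4% higher and 8.81% lower among all genes. At an unadjusted p under 0.05 the count of core genes was also 0 in all 4 comparisons. The fit without the set as a block also called 0, as did a fit, added after the data were seen, that splits set 2 into 2 blocks by the suffix in the titles. Over all genes the fit without the block called fewer as well, 236 higher and 304 lower at 72 h beside 765 and 1066 with it. In these bulk samples fewer cells and less RNA per cell cannot be told apart, and a change that went along with total RNA would not be seen.

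**Figure D1:**
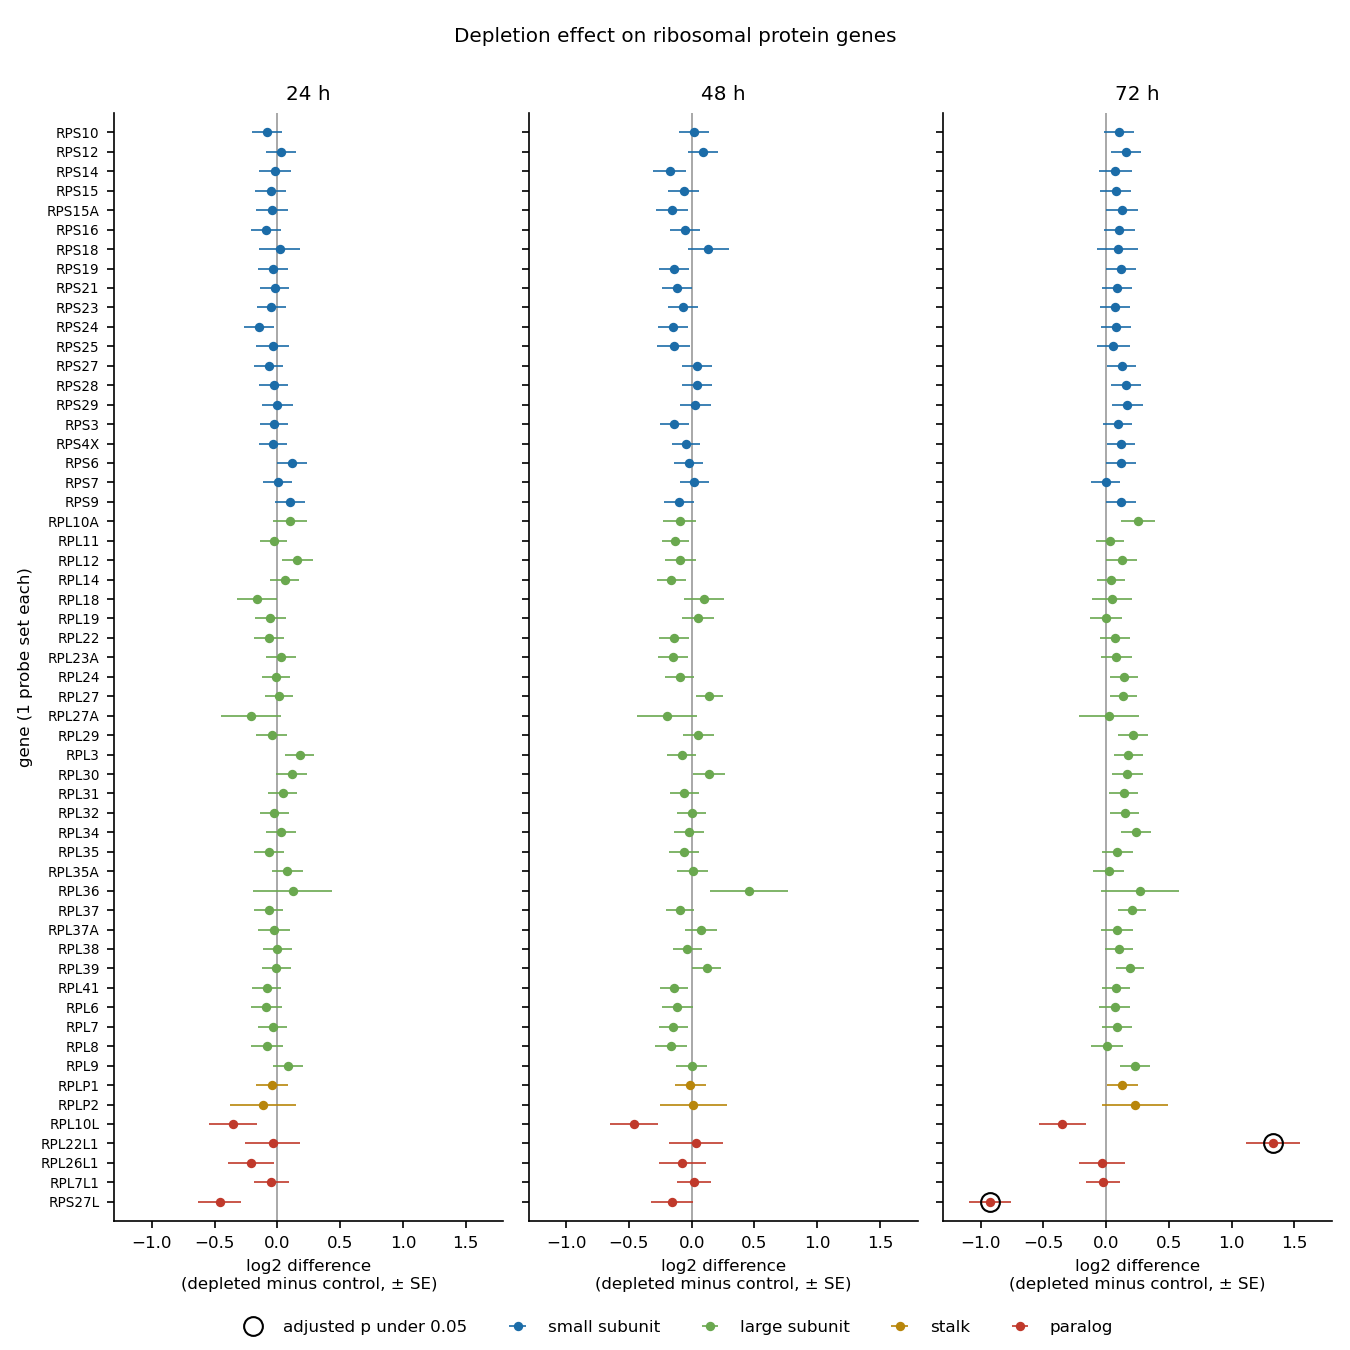
Log2 difference, depleted minus control, of each of the 56 ribosomal protein genes past the filter at 24, 48 and 72 h, with bars of 1 SE from the limma fit and circles on adjusted p under 0.05. The core genes lie close to 0 in all 3 panels, and at 72 h RPL22L1 stands at 1.33 and RPS27L at -0.92.

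The intervals of the core genes describe differences in deposited signal, from the fit with the set as a block. They do not bound the change in mRNA. On most arrays the majority of core probe sets lay near the brightest signal, where a difference may be understated. The intervals also leave out the choice of scaling. At 48 h the core median was -0.06 as deposited and -0.18 or 0.05 under the other scalings described below. The median standard error was 0.12 on the log2 scale at each time and 0.07 for the average over times. The 95% interval lay within 1.5-fold in both directions for 48 of 51 core genes at 24 h (not RPL27A, RPL36 and RPLP2), for 49 at 48 h (not RPL27A and RPL36), for 49 at 72 h (not RPL36 and RPLP2) and for 50 for the average (not RPL36). The median interval reached 0.26 log2 units to either side at each time and 0.15 for the average.

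RPS6, the small subunit protein phosphorylated by S6 kinases, stood near the core median of 0.11 at 72 h. At 24 h it was among the largest rises of the members, with differences of 0.12, 0.22 and 0.01 in sets 1, 2 and 3, beside a core median of -0.03. Its signals at 72 h were 6585, 7148 and 6154 on the depleted arrays of sets 1, 2 and 3, against 6498, 6337 and 5473 on the control arrays. The depleted array was the higher one in each set, but the groups overlapped, and the log2 difference of 0.12 (SE 0.12, 95% interval -0.13 to 0.37) gave an adjusted p of 0.568 by limma. RPS19, which is mutated in Diamond-Blackfan anaemia, had 8078, 13958 and 7561 in depleted cells at 72 h, against 7368, 13607 and 6613 in control cells, a log2 difference of 0.12 (SE 0.12). The depleted array was the higher one in 3 of 3 sets, and the groups overlapped.

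The other small subunit proteins with known separate roles had similar values at 72 h. RPS14, lost in the 5q- syndrome, differed by -0.02, -0.18 and 0.07 on the log2 scale at 24, 48 and 72 h (SE 0.13 at each). RPS3, which also has a DNA repair activity, differed by -0.03, -0.14 and 0.09 (SE 0.12). RPS4X, whose Y-linked copy did not pass the filter, differed by -0.04, -0.04 and 0.12. RPS24, chosen after its values were seen, differed by -0.15, -0.15 and 0.08 (SE 0.12), and RPS18, among the largest 48 h rises of the core, by 0.02, 0.13 and 0.09 (SE 0.16; -0.01 at 48 h with set 2 in 2 blocks). RPS14, RPS3, RPS4X and RPS24 stood below their controls at 24 and 48 h and above them at 72 h, and none of the 5 passed the test. Over the 20 small subunit genes the median was -0.03 at 24 h, -0.06 at 48 h and 0.10 at 72 h, with 19 of 20 above 0 at 72 h.

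Large subunit genes took the same course. RPL11, which with RPL5 binds and inhibits MDM2 when ribosome assembly is disturbed, had 5181, 5322 and 4798 in depleted cells at 72 h, against 4970.3, 5459 and 4569 in control cells, and its log2 difference was 0.03 (SE 0.11, 95% interval -0.20 to 0.26). The values overlap, and in set 2 the depleted array was the lower one. Among the largest 72 h differences of the large subunit were those of RPL36 (0.27, SE 0.31), RPL10A (0.26, SE 0.13), RPL34 (0.24, SE 0.12), RPL9 (0.23, SE 0.12) and RPL37 (0.21, SE 0.11), with adjusted p between 0.215 and 0.640. All of these were higher in 3 of 3 sets at that time, and none passed the test. At the other end, and chosen after their values were seen, RPL19 was at -0.003 and the small subunit gene RPS7 at -0.005. RPL8 was at 0.01 (-0.17 at 48 h), and RPL35A at 0.02.

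The earlier times had other leading genes, again without a call. RPL3, a protein near the peptidyl transferase centre, differed by 0.18, -0.08 and 0.18 at 24, 48 and 72 h, and RPL12, a base of the stalk, by 0.16, -0.09 and 0.13. RPL27 differed by 0.01, 0.14 and 0.14, RPL30 by 0.11, 0.14 and 0.17, and RPL39, whose paralog RPL39L did not pass the filter, by -0.01, 0.12 and 0.19. RPL30 was higher in the depleted array of all 9 within-set pairs, and RPL27 and RPL36 in 8 of 9, although none of them passed the test. RPL18 had the lowest value of the core in control cells at 72 h relative to 24 h (-0.29) and differed by -0.17, 0.10 and 0.05 between the media. In sets 1, 2 and 3 the 48 h differences of RPL18 were 0.03, 0.46 and -0.20. Those of RPL30 were 0.03, 0.34 and 0.05, and those of RPL39 0.06, 0.22 and 0.08. In set 2 the 48 h pair, and the comparison of 72 h with 24 h, set an array without the suffix against one with it. The median over the 29 large subunit genes was -0.01 at 24 h, -0.06 at 48 h and 0.10 at 72 h, with 28 of 29 above 0 at 72 h.

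RPL36 had the widest error of the core genes. Its signals at 48 h were 1988, 3317 and 3088 in depleted cells of sets 1, 2 and 3, against 1780, 1412 and 3121 in control cells. In set 2 the depleted array was far above its control, in set 1 slightly above and in set 3 slightly below, and the log2 difference of 0.46 (SE 0.31) had a 95% interval of -0.22 to 1.13. Its 72 h signals were 2002, 4647 and 3147 in depleted and 1581, 3711 and 2841 in control cells, with the depleted array higher in each set. Within set 2 the signals were 1915 (depleted, 24 h), 1655 (control, 24 h) and 1412 (control, 48 h) on the 3 arrays with a suffix in their titles, and 3317 and 4647 (depleted, 48 and 72 h) and 3711 (control, 72 h) on the others, so the 48 h gap of that set compares an array of each kind and cannot be told apart from whatever the suffix marks. With set 2 in 2 blocks by the suffix, the RPL36 differences were 0.12, 0.03 and 0.27 at 24, 48 and 72 h (SE 0.13, 0.14 and 0.13, adjusted p = 0.633, 0.938 and 0.170 by limma).

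The stalk proteins, which as RPLP1 and RPLP2 dimers draw elongation factors to the ribosome, were seen unequally. RPLP1 had 6584, 12699 and 6548 in depleted cells at 72 h, against 6132, 11791 and 5768 in control cells, a log2 difference of 0.13 (SE 0.13, adjusted p = 0.559 by limma). RPLP2 was represented by a dim probe set, at 26.7, 292 and 45.8 in depleted cells and 23.8, 294 and 24.7 in control cells at 72 h. Its signal in sets 1 and 3 never went above 46.0 while set 2 gave 235.3 to 379, so the RPLP2 difference of 0.23 (SE 0.26) says little about this mRNA. RPL27A, another large subunit gene, was of the same kind, with 63.6 to 136 in sets 1 and 3 and 873 to 1540.0 in set 2.

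The core genes nevertheless leaned one way at 72 h, by an amount that depends on the scaling of the arrays. Their median log2 difference was -0.03 at 24 h with 17 of 51 above 0, -0.06 at 48 h with 18 above 0, and 0.11 at 72 h with 49 of 51 above 0, beside medians over all 12319 genes of 0.01, 0.03 and -0.04. Within the sets the 72 h median was 0.11 in set 1 (45 of 51 above 0), 0.06 in set 2 (40 above 0) and 0.16 in set 3 (51 above 0). Quantile normalization of the arrays, which forces the brightest probe sets of every array to the same values, left a 72 h core median of 0.02 with 29 of 51 above 0, and turned the medians at 24 h and 48 h to 0.04 and 0.05. Centring each array on its 75th percentile gave -0.06 at 24 h, -0.18 at 48 h and 0.12 at 72 h. This centring moved the median of all genes at 48 h to -0.10, so relative to all genes the 48 h core median hardly moved.

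The change of the depletion effect between 24 h and 72 h had a core median of 0.14 with 47 of 51 above 0, and that between 48 h and 72 h a core median of 0.16 with 45 above 0; after quantile normalization the median of the first of these was -0.03 with 16 of 51 above 0. limma called 0 of 51 core genes in both, 0 at an unadjusted p under 0.05 as well. Of all genes 1.83% were called higher and 3.47% lower in the change since 24 h, and 1.18% higher and 1.43% lower in the change since 48 h. RPLP2 (0.35, SE 0.37) and RPL37 (0.28, SE 0.16) led the rises in the core, and the interval lay within 1.5-fold for 44 of 51 core genes in the change since 24 h and for 34 of 51 in that since 48 h.

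Over time no core gene passed the test either. In depleted cells the core median at 72 h relative to 24 h was 0.06 with 43 of 51 above 0, and 0 of 51 passed the test (1 at an unadjusted p under 0.05), beside 3.87% of all genes higher and 7.12% lower. In control cells the same interval gave a core median of -0.08 with 13 of 51 above 0, again with 0 called and 0 at an unadjusted p under 0.05, beside 0.998% of all genes higher and 0.576% lower. Both time comparisons share arrays with the depletion effects and are not separate evidence. In set 2 they also set arrays without the suffix against arrays with it, and there the SD over the core genes was 0.27 in depleted and 0.28 in control cells, beside 0.10 to 0.12 in the other sets, with a depleted median of -0.04 (23 of 51 above 0); time and suffix cannot be told apart in that set. With set 2 in 2 blocks the medians were 0.06 in depleted (45 of 51 above 0) and -0.08 in control cells (10 above 0). After quantile normalization the medians were 0.01 in depleted and 0.04 in control cells.

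The position of these probe sets on the arrays' scale limits what can be seen. In sets 1 and 3 between 39 and 46 of the 51 core probe sets lay within 1 log2 unit of the brightest signal of their array, whereas in set 2 only 4 to 9 did. The share of an array's summed signal carried by the 56 genes lay between 4.90 and 5.36% in set 2 but between 3.14 and 3.42% (set 1) or 3.04 and 3.33% (set 3) on the other arrays, and 46 of the 51 core genes were brighter in set 2 than in both other sets. A log2 difference near the top of the scale may be understated, and whether it was here was not tested. In set 2, where the room above was widest, the core medians were -0.01, -0.13 and 0.06 at 24, 48 and 72 h. Signals of different probe sets depend on the probes and do not rank the genes' mRNAs.

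**Figure D2:**
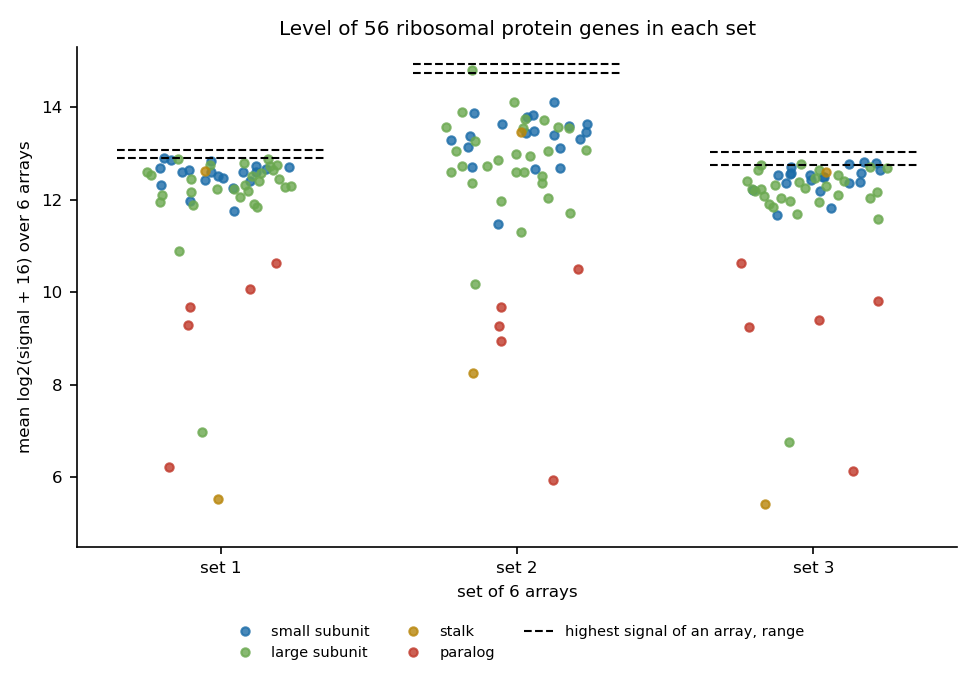
Mean log2(signal + 16) over the 6 arrays of each set for the 56 genes, with dashed lines at the lowest and highest array maximum of the set. Core genes crowd below the maximum in sets 1 and 3 and spread more widely below a higher maximum in set 2, where RPLP2 and RPL27A are also brighter.

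Of the 5 paralogs tested, limma called 0 at 24 h and 48 h (0 without the set as a block as well), 1 higher and 1 lower at 72 h, where 6.21% of all genes were higher and 8.65% lower, and 1 higher and 2 lower on average, where 8.4% were higher and 8.81% lower. Without the set as a block 1 was higher and 1 lower at 72 h and 0 higher and 1 lower on average. In that fit 236 of all 12319 genes were higher and 304 lower at 72 h, and 306 and 266 on average. The difference from the core genes was not tested. RPL22L1, the paralog of the large subunit protein RPL22 (in the mouse, Rpl22 protein represses Rpl22l1), was 2.52-fold higher in depleted cells at 72 h. RPS27L, the paralog of RPS27 and a known p53 target whose protein binds MDM2, fell to 0.527 of the control level at 72 h. RPL10L, known from testis, was lower by 0.39 log2 units on average at a very dim signal. The core partners RPL22 and RPS27 did not pass.

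RPL22L1 had signals of 2131, 2653 and 2072 in depleted cells at 72 h on the arrays of sets 1, 2 and 3, against 1005, 822 and 862 in control cells. The groups were far apart, with every depleted array at more than double the control array of its set. At 48 h the signals were 1098, 467 and 843 in depleted and 907, 622.5 and 712 in control cells, and at 24 h 752, 696 and 623.5 in depleted and 868.5, 599 and 681 in control cells. At both earlier times the groups overlapped and the sets disagreed in direction. The log2 difference was 1.33 at 72 h (SE 0.22, adjusted p = 0.00139 by limma), 0.04 at 48 h and -0.04 at 24 h (SE 0.22 each, 95% interval -0.50 to 0.43 at 24 h).

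The average over the times was 0.44 (SE 0.12, adjusted p = 0.0298 by limma), which became 0.124 without the set in the model and was lost in 10 of 18 fits that left out 1 array. The change of the effect with time was itself tested. Between 24 h and 72 h the depletion effect grew by 1.37 log2 units (SE 0.31, adjusted p = 0.0223 by limma), but without the set in the model the adjusted p was 0.128, and 7 of 18 fits that left out 1 array lost the call. Within depleted cells RPL22L1 rose 3.25-fold between 24 h and 72 h (log2 1.70, SE 0.22, adjusted p = 0.000661 by limma), and in control cells the same difference was 0.33 (SE 0.22, adjusted p = 0.526). The rise in depleted cells was called in 18 of 18 fits without 1 array but lost without set 1 (adjusted p = 0.0677 by limma) and without set 3 (0.0506). In this comparison 0 of all genes were higher and 2 lower without set 1, and 41 and 85 without set 3. With all sets these counts were 477 and 877. The 72 h effect itself was called in 18 of 18 fits without 1 array and without the set in the model (adjusted p = 0.00855). It lost its call when set 3 was left out whole (adjusted p = 0.0653 by limma, log2 1.37) and kept it without set 1 (0.0495) and without set 2 (0.00464).

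RPL22, the core partner, had 5054, 6075 and 4399 in depleted cells at 72 h, against 4737, 6071 and 4039 in control cells. The groups overlapped, and the log2 difference was 0.07 (SE 0.12, 95% interval -0.19 to 0.33, adjusted p = 0.757 by limma). The log2 ratio of RPL22L1 to RPL22 signal averaged -1.17 ± 0.08 in depleted and -2.43 ± 0.37 in control cells at 72 h (SD, n = 3 each). The paralog gained 1.26 log2 units on its partner, with no overlap (exact permutation test ignoring the sets, two-sided p = 0.1, the smallest that 3 against 3 arrays can give). Within sets 1, 2 and 3 the gain was 0.98, 1.67 and 1.13, and a paired exact test on 3 sets cannot give a p under 0.25. This ratio uses the same RPL22L1 signals as the 72 h call and is not separate evidence. At 24 h and 48 h the same ratio differed by 0.03 and 0.18, with overlap.

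RPS27L moved the other way. It had 273, 295 and 372 in depleted cells at 72 h, against 642, 602 and 569.6 in control cells. Every depleted array lay below every control array, with set 1 the farthest apart. At 48 h the signals were 594, 498 and 663 in depleted and 754, 539.8 and 673 in control cells, and at 24 h 704, 400.3 and 582 in depleted and 892.5, 617 and 795 in control cells. The groups overlapped at both times although the depleted array was the lower one in all 9 within-set pairs.

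The log2 difference of RPS27L was -0.92 at 72 h (SE 0.17, adjusted p = 0.00297 by limma), -0.16 at 48 h and -0.46 at 24 h (SE 0.17 each, adjusted p = 0.692 and 0.174). Averaged over the times it was -0.51 (SE 0.10, adjusted p = 0.00364, and 0.0391 without the set in the model). The 72 h call held in 18 of 18 fits without 1 array but was lost without set 1 (adjusted p = 0.0963, log2 -0.79) and without set 3 (0.0588, log2 -1.09), and the averaged call was lost without the same sets (0.0842 and 0.0755). The other 2 probe sets of RPS27L, both dimmer, differed at 72 h by -0.73 (SE 0.26, adjusted p = 0.0847) and -0.44 (SE 0.29, adjusted p = 0.366). All 3 probe sets were lower, and 1 passed the test. Within depleted cells RPS27L fell by 0.79 between 24 h and 72 h (SE 0.17, adjusted p = 0.0108 by limma, 0.0922 without the set in the model, 0.278 and 0.112 without sets 1 and 3), beside -0.32 in control cells (SE 0.17, adjusted p = 0.410). Its change of effect between 24 h and 72 h, -0.46 (SE 0.24), had an adjusted p of 0.311.

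RPS27, the core partner, had 6496, 12509 and 6422 in depleted cells at 72 h, against 5971, 11254 and 6003 in control cells. The depleted array was the higher one in 3 of 3 sets, while the log2 difference of 0.12 (SE 0.12, 95% interval -0.13 to 0.38) did not pass. The log2 ratio of RPS27L to RPS27 signal was -4.63 ± 0.65 in depleted and -3.58 ± 0.54 in control cells at 72 h (SD, n = 3 each), a difference of -1.05 with overlapping values (exact permutation test ignoring the sets, two-sided p = 0.2). Within sets 1, 2 and 3 the difference was -1.31, -1.14 and -0.69, lower in 3 of 3 sets, and a paired exact test on 3 sets cannot give a p under 0.25.

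**Figure D3:**
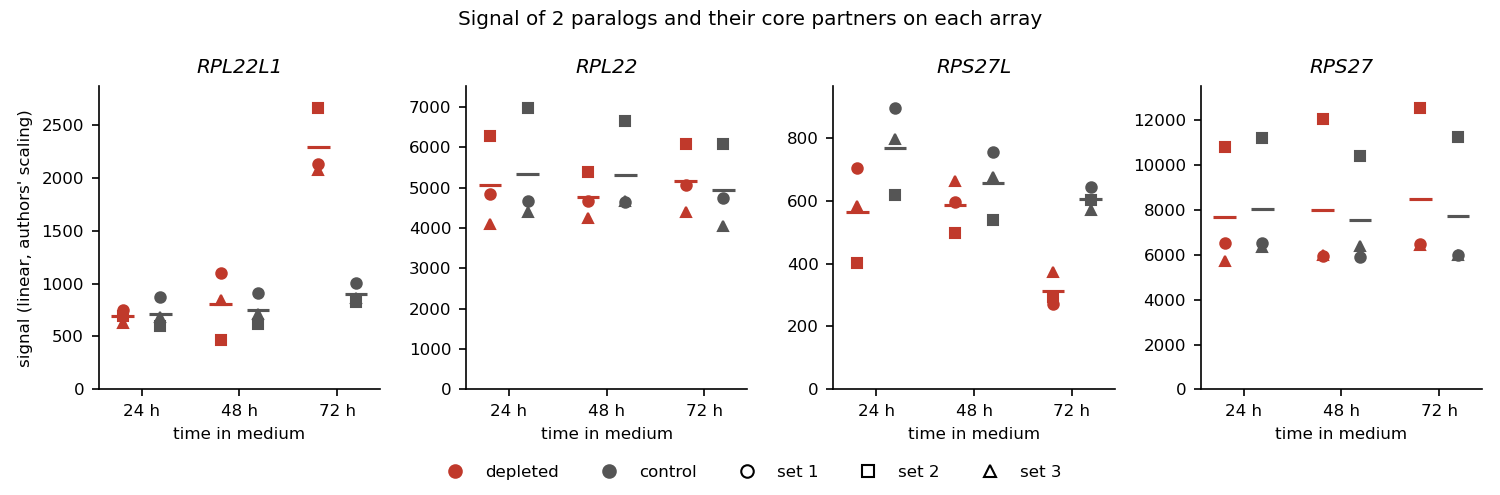
Signal on each array of RPL22L1, RPL22, RPS27L and RPS27 at 24, 48 and 72 h, depleted left of control, with symbols for the 3 sets and a line at each group mean. At 72 h RPL22L1 lies at 2072 to 2653 in depleted and 822 to 1005 in control cells, and RPS27L at 273 to 372 in depleted and 569.6 to 642 in control cells, while RPL22 and RPS27 overlap.

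The other paralogs gave less. RPL10L had 56.2, 46.4 and 61.8 in depleted cells at 72 h, against 66.2, 76.8 and 78.7 in control cells, and the depleted array was the lower one in all 9 within-set pairs. Its differences were -0.36, -0.46 and -0.35 at 24, 48 and 72 h (SE 0.19), none past the test, and the average of -0.39 (SE 0.11) had an adjusted p of 0.0297 by limma that became 0.115 without the set in the model and was lost in 9 of 18 fits without 1 array and without each set (0.138 to 0.144). The partner RPL10 stands in the annotation only beside other symbols. RPL26L1 differed by -0.21, -0.07 and -0.03 (SE 0.18) and RPL7L1 by -0.05, 0.02 and -0.02 (SE 0.14), with average effects of -0.11 (95% interval -0.34 to 0.12) and -0.02 (-0.19 to 0.15). RPL7, the partner of RPL7L1, differed by -0.04, -0.15 and 0.09.

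A second look at the members comes from the probe sets that were not chosen. Of the 121 probe sets 108 passed the filter, and the 52 not chosen had a median level of 8.49 log2 units against 12.65 for the chosen ones. limma called 3 of these 52 higher at 24 h, 2 higher at 48 h, 2 higher and 1 lower at 72 h, and 5 higher on average (9.62% of them, beside the 8.4% of all genes higher on average; 5.77% at 24 h, beside 1.98% higher, 3.85% at 48 h, beside 0.568% higher, and 5.77% at 72 h, beside 6.21% higher and 8.65% lower), in 5 genes whose brightest probe set was never called: RPL37, RPL22, RPL31, RPL37A and RPS16. They were picked for these calls after their values were seen. In a gene with several probe sets these can match different transcript ends, retained introns or copies elsewhere in the genome, and which of these they match was not tested.

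RPL37, a large subunit protein, had the clearest case. The probe set 224767_at gave 190.3, 193 and 178 in depleted cells at 24 h, against 69.8, 59.0 and 70.1 in control cells. The other, 224763_at, gave 193, 122 and 147 in depleted and 104.5, 69.2 and 66.6 in control cells at the same time. Every depleted array exceeded every control array on both. At 72 h they gave 176, 96.0 and 141 in depleted against 153, 116 and 119.9 in control cells, and 169, 96.2 and 148 in depleted against 179, 112 and 134 in control cells, with full overlap. The log2 differences at 24, 48 and 72 h were 1.31, 1.02 and 0.05 for 224767_at (SE 0.16, adjusted p = 0.00109, 0.0110 and 0.881 by limma) and 0.82, 0.96 and -0.05 for 224763_at (SE 0.13, adjusted p = 0.00610, 0.00510 and 0.870). The bright RPL37 probe set, at 6787 to 14592 in depleted and 5880 to 12454 in control cells at 72 h, differed by -0.07, -0.09 and 0.21.

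Without the set in the model the 24 h call of 224767_at kept an adjusted p of 0.0135 by limma. Its 48 h call and the calls of 224763_at at 24 and 48 h were lost (0.127, 0.332 and 0.343). Leaving out set 1 or set 3 removed all 4 calls (0.141 to 0.374), but those fits called few genes of any kind. Without set 1, 2 of all 12319 genes were higher at 24 h and 2 at 48 h, with 0 lower. Without set 3 all these counts were 0, so the loss of the 4 calls says little about these probe sets. The averaged effects, 0.79 for 224767_at and 0.58 for 224763_at, kept their calls without the set in the model (adjusted p = 0.00165 and 0.0435 by limma) and without each set (0.00313 to 0.0340, and 0.00670 to 0.0493).

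RPL22 showed the same at 24 h on the probe set 221726_at, with 1363, 1390.0 and 1031 in depleted cells against 723, 699 and 560.3 in control cells. Every depleted array was the higher, with a log2 difference of 0.91 (SE 0.16, adjusted p = 0.0102 by limma, 0.183 without the set in the model and 0.277 and 0.294 without sets 1 and 3). As for RPL37, the fits without set 1 or set 3 could hardly call any gene at 24 h. At 48 and 72 h 221726_at differed by 0.28 and 0.08. The bright RPL22 probe sets differed by -0.07, -0.14 and -0.09 at 24 h.

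RPL37A and RPS16 were higher late instead. The RPL37A probe set 213459_at gave 220.3, 161 and 149.6 in depleted cells at 72 h, against 79.9, 74.8 and 63.9 in control cells, a log2 difference of 1.10 (SE 0.17, adjusted p = 0.000912 by limma, 0.0468 without the set in the model and 0.0535 without set 1). The RPS16 probe set 226130_at gave 101, 59.6 and 107 in depleted and 28.0, 40.1 and 43.0 in control cells, a difference of 0.97 (SE 0.19, adjusted p = 0.00441 by limma, 0.0641 without the set in the model, 0.170 and 0.125 without sets 1 and 3). On both no depleted array reached down to a control array. The RPL31 probe set 200962_at was lower at 72 h, with 94.9, 146 and 104 in depleted and 194, 199 and 128 in control cells (log2 -0.53, SE 0.16, adjusted p = 0.0452 by limma). These values overlap between the groups, and the call is one that held in 5 of 18 fits without 1 array and had an adjusted p of 0.420 without the set in the model.

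**Figure D4:**
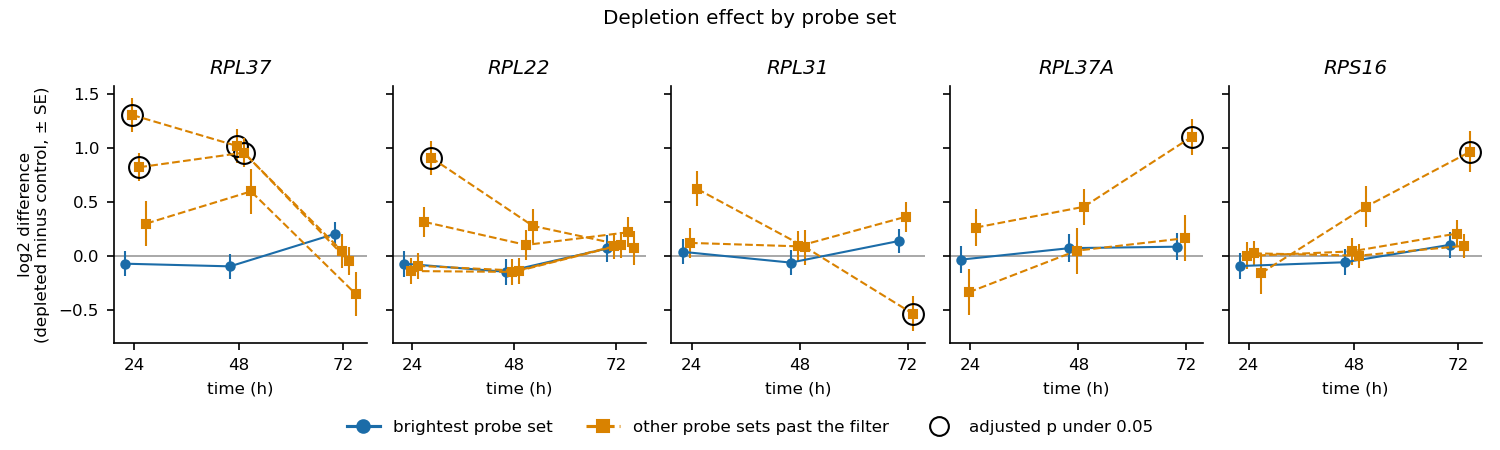
Log2 difference, depleted minus control, with bars of 1 SE, at 24, 48 and 72 h for each probe set past the filter of RPL37, RPL22, RPL31, RPL37A and RPS16; circles mark adjusted p under 0.05. The brightest probe set of each gene (blue) stays between -0.14 and 0.21, while dimmer probe sets (orange) reach 1.31 in RPL37 at 24 h and 1.10 in RPL37A at 72 h.

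Genes that work beside the ribosomal proteins were read from lists, given here with their counts and medians only. The mitochondrial ribosomal proteins build the separate ribosome that translates mitochondrial mRNAs. Of 75 tested 3 (4%) were lower at 24 h, beside 0.982% of all genes. At 48 h 0 were called, beside 0.244% of all genes lower. At an unadjusted p under 0.05 there were 29 of the 75 at 48 h, both directions together, and the share of all genes at that threshold is not given here. At 72 h 15 (20%) were lower, beside 8.65% of all genes. At each time 0 were higher, beside 1.98%, 0.568% and 6.21% of all genes. The mitochondrial medians were -0.34, -0.27 and -0.26, beside -0.03, -0.06 and 0.11 for the core cytosolic proteins. MRPL39 (-0.77 at 24 h and -0.85 at 72 h), MRPL40 (-0.53 and -0.96) and MRPS28 (-0.68 and -0.89) had the smallest p in the averaged effect. That effect called 34 lower and 1 higher (46.7% together), beside 8.81% and 8.4% of all genes. These calls rest on the set in the model: without it 0, 0 and 1 were lower at 24, 48 and 72 h and 3 on average. The count lower among all 12319 genes fell as well, from 121 to 8 at 24 h, from 1066 to 304 at 72 h and from 1085 to 266 on average. The difference between the mitochondrial and cytosolic lists was not tested.

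Ribosome biogenesis genes, which make and process ribosomal RNA, had medians of -0.25 at 24 h, -0.13 at 48 h and 0.23 at 72 h over 29 tested genes. At 24 h 22 of the 29 were below 0. The 1 gene called at 24 h (3.45%, beside 1.98% of all genes higher and 0.982% lower) went the other way. It was POLR1D, a subunit of RNA polymerases I and III (0.72, adjusted p = 0.0119 by limma). On average 2 were higher and 2 lower, beside 8.4% and 8.81% of all genes. In the change between 24 h and 72 h 3 (10.3%) were higher and 0 lower, beside 1.83% and 3.47% of all genes. At 72 h the snoRNP proteins NOP58 (0.61) and NHP2 (-0.73), the RNA polymerase I factor UBTF (-0.72) and the processing factor WDR43 (0.51) passed, 4 of 29 (13.8%) beside the 6.21% of all genes higher and 8.65% lower. Without the set in the model 0 of the 29 were called at any time or on average. Among all genes that fit called 236 higher and 304 lower at 72 h, beside 765 and 1066 with the set.

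**Figure D5:**
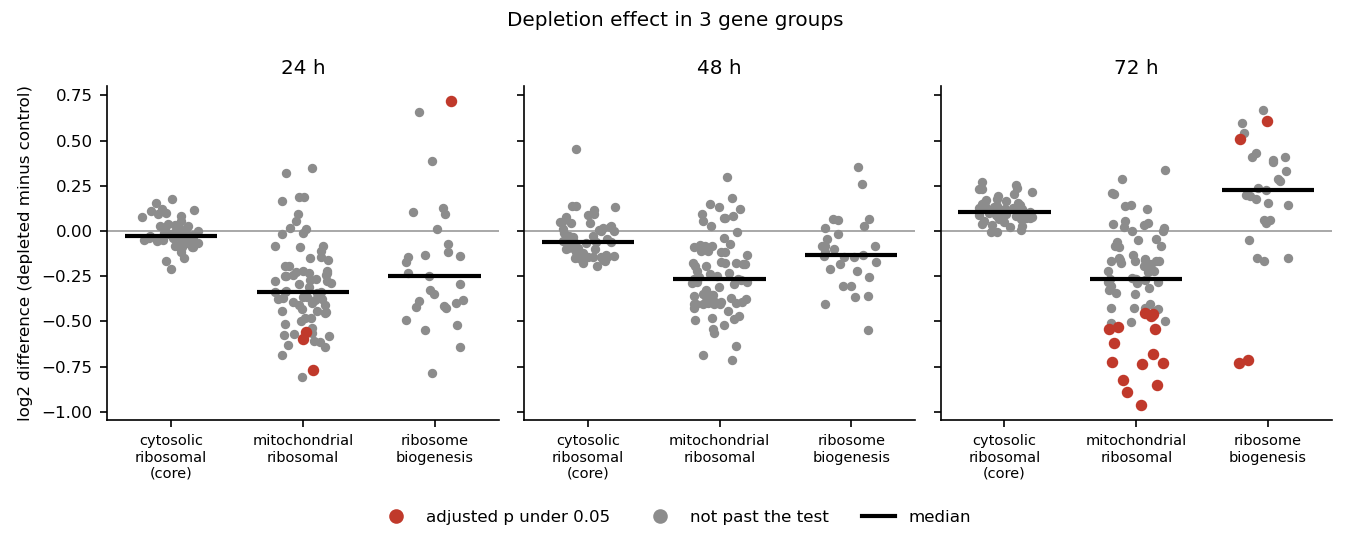
Log2 difference, depleted minus control, of 51 core cytosolic ribosomal protein genes, 75 mitochondrial ribosomal protein genes and 29 ribosome biogenesis genes at 24, 48 and 72 h; each point is a gene, red where adjusted p is under 0.05, and the line is the median. The cytosolic medians are -0.03, -0.06 and 0.11, the mitochondrial ones -0.34, -0.27 and -0.26, and the biogenesis ones -0.25, -0.13 and 0.23.

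Ribosomal proteins whose symbols fall outside the naming rule were FAU, which carries RPS30 (average effect -0.06, SE 0.08), and RPL36AL, a paralog of RPL36A (-0.28, SE 0.07, adjusted p = 0.0197 by limma, 0.557 without the set in the model). Among 13 tested mRNAs of translation factors and other proteins known to start with a TOP tract, 1 was higher on average and 0 lower. The share of 7.69% is near the 8.4% of all genes higher on average, where 8.81% were lower. The 1 gene was HNRNPA1, an RNA-binding splicing protein, at 0.48 (SE 0.08, adjusted p = 0.00237 by limma, 0.215 without the set in the model), with 0.92 at 72 h. The median of the 13 was 0.20 at 24 h, 0.01 at 48 h and 0.03 at 72 h.

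Of 3 tested snoRNA host genes, which carry small nucleolar RNAs in their introns, 2 were higher on average, beside 8.4% of all genes. EPB41L4A-AS1 differed by 1.83, 0.87 and 1.20 at 24, 48 and 72 h and by 1.30 on average (SE 0.10, adjusted p = 4.36e-06 by limma, 8.97e-05 without the set in the model). ZFAS1 differed by 0.50 on average (SE 0.08, adjusted p = 0.00102, 0.103 without the set in the model), and GAS5, whose transcript begins with a TOP tract, by -0.21 (SE 0.20, adjusted p = 0.535). The GAS5 probe set was dim, at a mean of 6.27 log2 units beside 12.39 for ZFAS1 and 9.98 for EPB41L4A-AS1. The GAS5 differences were -0.66, -0.36 and 0.38 at 24, 48 and 72 h (SE 0.35), so the average joins opposite directions. Among 10 tested chaperones and late assembly factors of ribosomal proteins 3 were lower on average and 0 higher, beside 8.81% and 8.4% of all genes. The 3 were PDCD2 (-0.45), HEATR3 (-0.36) and GRWD1 (-0.38), with adjusted p of 0.00237, 0.0178 and 0.0477 by limma, and 0.0608, 0.104 and 0.230 without the set in the model. Of 10 translation regulators, such as RPS6KB1, the kinase of RPS6 (0.22, adjusted p = 0.0737), limma called 0 on average, beside 8.4% of all genes higher and 8.81% lower. At an unadjusted p under 0.05 there were 2, a threshold at which the share of all genes is not given here.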

How the data were processed

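Total RNA of 18 Caco-2 samples was measured on 1-colour expression arrays. The authors deposited 1 intensity value per probe set and array, made with MAS5 per the submitters' processing notes (version not given in the sources used here). These intensities were used as log2(signal + 16) values, computed here from the deposited intensities with no further scaling. Leaving out 62 control probe sets, the tests covered the 27307 of 54675 probe sets with a mean above the median of 5.15 (a signal of about 19.6). limma 3.58.1 in R 4.3.3 fitted 6 groups with the set as a block, with Benjamini-Hochberg adjustment over all tested probe sets. Counts over genes use 1 probe set per gene.

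The set is the paired unit: deviations of arrays in 1 set correlated at 0.302 to 0.602 in 45 pairs, and 18 of 18 arrays matched their own set best. Symbols came from the platform annotation and all 60 were found by Entrez ID in RefSeq. Of the chosen probe sets 14 end in _x_at and 30 in _s_at, which can match related sequences, and ribosomal protein genes have many processed copies. On simulated data the fit was tested with known changes. Members, lists and tests were chosen with earlier results of these data known. Named genes were the 4 largest rises and falls at each time and averaged, the largest changes with time, the paralogs with their partners (RPS24, RPS7 and RPL19 were added after their values were seen), a fixed list of proteins with other roles, and the genes of each neighbouring list with the smallest p. Alternatives were the fit with no replicate block, 2 other scalings, other pseudocounts, no filter, the mean over a gene's probe sets, leaving out arrays or sets, and, added later, set 2 as 2 blocks.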

Additional observations from a re-analysis of the deposited data

Results flagged for a closer look

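Depletion effects that differed between time points by a test of the difference itself were seen on 5 probe sets of ribosomal protein genes, out of 108 tested. In the change between 24 h and 72 h these were 1.85% higher and 2.78% lower, near the 1.83% and 3.47% of all genes, and in that between 48 h and 72 h 0.926% higher and 1.85% lower, near the 1.18% and 1.43% of all genes. The effect on RPL22L1 was larger by 1.37 log2 units at 72 h than at 24 h and by 1.29 than at 48 h (adjusted p = 0.0223 and 0.0442 by limma). On the RPS16 probe set 226130_at it was larger by 1.12 at 72 h than at 24 h (adjusted p = 0.0309). On the RPL37 probe set 224767_at the effect at 72 h minus that at 24 h was -1.26 and that at 48 h gave -0.97 (adjusted p = 0.00846 and 0.0428). On the RPL37 probe set 224763_at the same changes were -0.87 and -1.004 (adjusted p = 0.0186 and 0.0161), and on the RPL31 probe set 200962_at the change between 24 h and 72 h was -1.15 (adjusted p = 0.0135). Without the set as a block none of these 8 changes passed the test, with adjusted p of 0.0738 to 0.424 by limma. That fit called 39 of all genes higher and 49 lower in the change since 24 h, beside 226 and 427 with the block.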

How the results depend on the processing

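In 28 alternative fits limma called 0 of the 51 core genes on their chosen probe sets, which leaves aside the mean over a gene's probe sets and the setting without probe sets ending in _x_at, with 48 genes left. Of these fits 18 leave out 1 array each and share most of the data. The fits without set 1 and without set 3 called 2 and 0 of all genes higher at 24 h and 0 lower. Those 2 fits could hardly have called a core gene at that time. With no replicate block, 1 ribosomal protein gene was called on average (3 with it), 0 in the change between 24 h and 72 h (1) and 1 in depleted cells over time (2). With no filter on low signal 1 was called on average and 0 in that change. With a gene's log2 differences averaged over its probe sets, the averages themselves were not tested. A gene counted as called if any of its probe sets with the sign of the average was called, which favours genes with many probe sets. So counted, 2 genes were called at 24 h, 1 at 48 h, 5 at 72 h, 7 on average, 4 in the change and 1 in control cells over time. The median effect averaged over the times was 0.04. The values of RPL22 then turned to 0.19 at 24 h and 0.10 on average and those of RPL37 to 0.59 at 24 h, 0.62 at 48 h and -0.63 for the change.

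Medians over the 56 genes moved with the scaling. Centring on the 75th percentile gave -0.18 at 48 h, -0.036 on average and -0.12 in control cells over time. Quantile normalization gave 0.036 at 24 h, 0.048 at 48 h, 0.0072 at 72 h, -0.030 for the change and 0.041 in control cells over time. Among all genes the averaged effect was called higher in 1035 and lower in 1085 as deposited, and in 728 and 1300 after 75th percentile centring.

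Leaving out an array or a set gave 0 to 0 calls at 24 h and at 48 h, 0 to 2 at 72 h, 0 to 3 on average, 0 to 1 for the change, 0 to 2 in depleted cells over time and 0 to 0 in control cells. The medians ranged over -0.043 to 0.0018 at 24 h, -0.09 to -0.02 at 48 h, 0.08 to 0.12 at 72 h, 0.00 to 0.02 on average, 0.08 to 0.15 for the change, 0.005 to 0.074 in depleted cells over time and -0.108 to -0.0526 in control cells. Counting 13 more genes listed beside small RNA genes, and splitting set 2 into 2 blocks by the title suffix, alternatives added after seeing the data, changed no count of calls. The limits are 3 arrays a group, the crowding of core probe sets at the top of the scale in sets 1 and 3, and 1 dim probe set each for RPLP2, RPL27A and RPL10L. With whole sets left out, 2 arrays a group remained, and fewer genes of any kind were called. At 72 h 90 of all 12319 genes were higher and 93 lower without set 1, 601 and 813 without set 2, and 128 and 147 without set 3. With all sets these counts were 765 and 1066, so a call lost without a set says little by itself.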
